A study of Mus musculus with 48 samples.

Results

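The genes described here are the proteasome subunits, the cytosolic chaperonin subunits and the heat shock proteins of 48 single mouse cells. They were chosen by symbol (Psma, Psmb, Psmc or Psmd with a number, Cct with a number, Tcp1, and Hspa, Hspb, Hspd1, Hspe1, Hsp90 or Hsph1). The rule uses no measured value, but it was set with earlier results of these data known. The rule found 76 of the 23284 gene symbols in the table: 39 proteasome, 10 chaperonin and 27 heat shock genes. The proteasome is a barrel-shaped protease, the 20S core, whose rings of alpha and beta subunits enclose the active sites. It is capped by the 19S particle, which binds ubiquitin-tagged proteins, unfolds them with a ring of ATPases and feeds them in. The chaperonin CCT encloses newly made actin and tubulin while they fold, and the heat shock proteins hold or refold other proteins in the cytosol, the mitochondria and the endoplasmic reticulum (ER). Some members are made in nearly all cells, and others are known for being made in particular tissues or after interferon or heat.

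The cells came from mouse embryonic stem cells of strain 129P2/OlaHsd with an inducible Mesp1, a transcription factor of early cardiovascular mesoderm. They had grown for 4 days as embryoid bodies, aggregates in which stem cells differentiate, and Mesp1 had been switched on with 500 ng/ml doxycycline between days 2.25 and 3.25. On day 4, cells negative for propidium iodide, which stains dead cells, were sorted and captured singly with the Fluidigm C1, a microfluidic instrument. All 48 cells thus share 1 genotype, 1 treatment and 1 time, and with no separate culture named they stand as 1 sample, so everything below describes these cells, no p-value is given, and correlations over cells are descriptions.

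Levels are in FPKM, fragments per kilobase of transcript scaled to the number mapped, and a gene counts as detected in a cell at 1 FPKM or more. A median of 6212 genes was detected per cell (range 4788 to 7010). This number fell with the number in the cell's label (Spearman's rho = -0.82), with medians of 6506 genes in the 25 cells numbered up to 48 and 5711 in the 23 above. Cell C93, with 4997 detected genes, had the highest value of 12 of the 44 members found in every cell, while the next cell, C53, had the highest of 4. Its summed FPKM was 727930, against a median of 635173 over cells. The same count over all symbols was not made, so this is not shown to be particular to the members. Mesp1 itself was found in 30 cells (median 7.66 FPKM). Of 10 nascent mesoderm markers, 9 were detected in at least 24 cells (Lhx1 in 38, Eomes in 35, T in 26), as were 25.2% of all symbols. So were 2 of 7 pluripotency, 1 of 6 endothelial, 1 of 5 neurectoderm and 1 of 5 germ cell markers, which is near that share. Of the endoderm markers 0 of 6 were, and of the blood and cardiomyocyte markers 0 of 5 each. Cdh5, Ptprc, Hba-x, Hbb-bh1, Myh6, Nppa and Prm1 were listed at 0 in every cell.

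Most of the machinery was found in nearly all cells. Of the 76 members, 56 were detected in at least 24 of the 48 cells, as were 25.2% of all symbols, and 44 were detected in all 48 cells, as were 4.99% of all symbols. A median of at least 100 FPKM was reached by 42 members and by 3.09% of all symbols. The 3 families differed in this: at least 24 cells were reached by 35 of 39 proteasome genes, 8 of 10 chaperonin genes and 13 of 27 heat shock genes. At the other end, 12 members were detected in fewer than 5 cells (54.5% of all symbols), and Cct8l1, Hspa1a, Hspa1b, Hspb3 and Hspb9 were listed at 0 in every cell (28.4% of all symbols). A cell held between 50 and 62 detected members (median 56). Their summed FPKM was 3.64% of the cell's sum without short RNAs at the median cell, with a range from 2.94% to 4.59%.

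**Figure D1:**
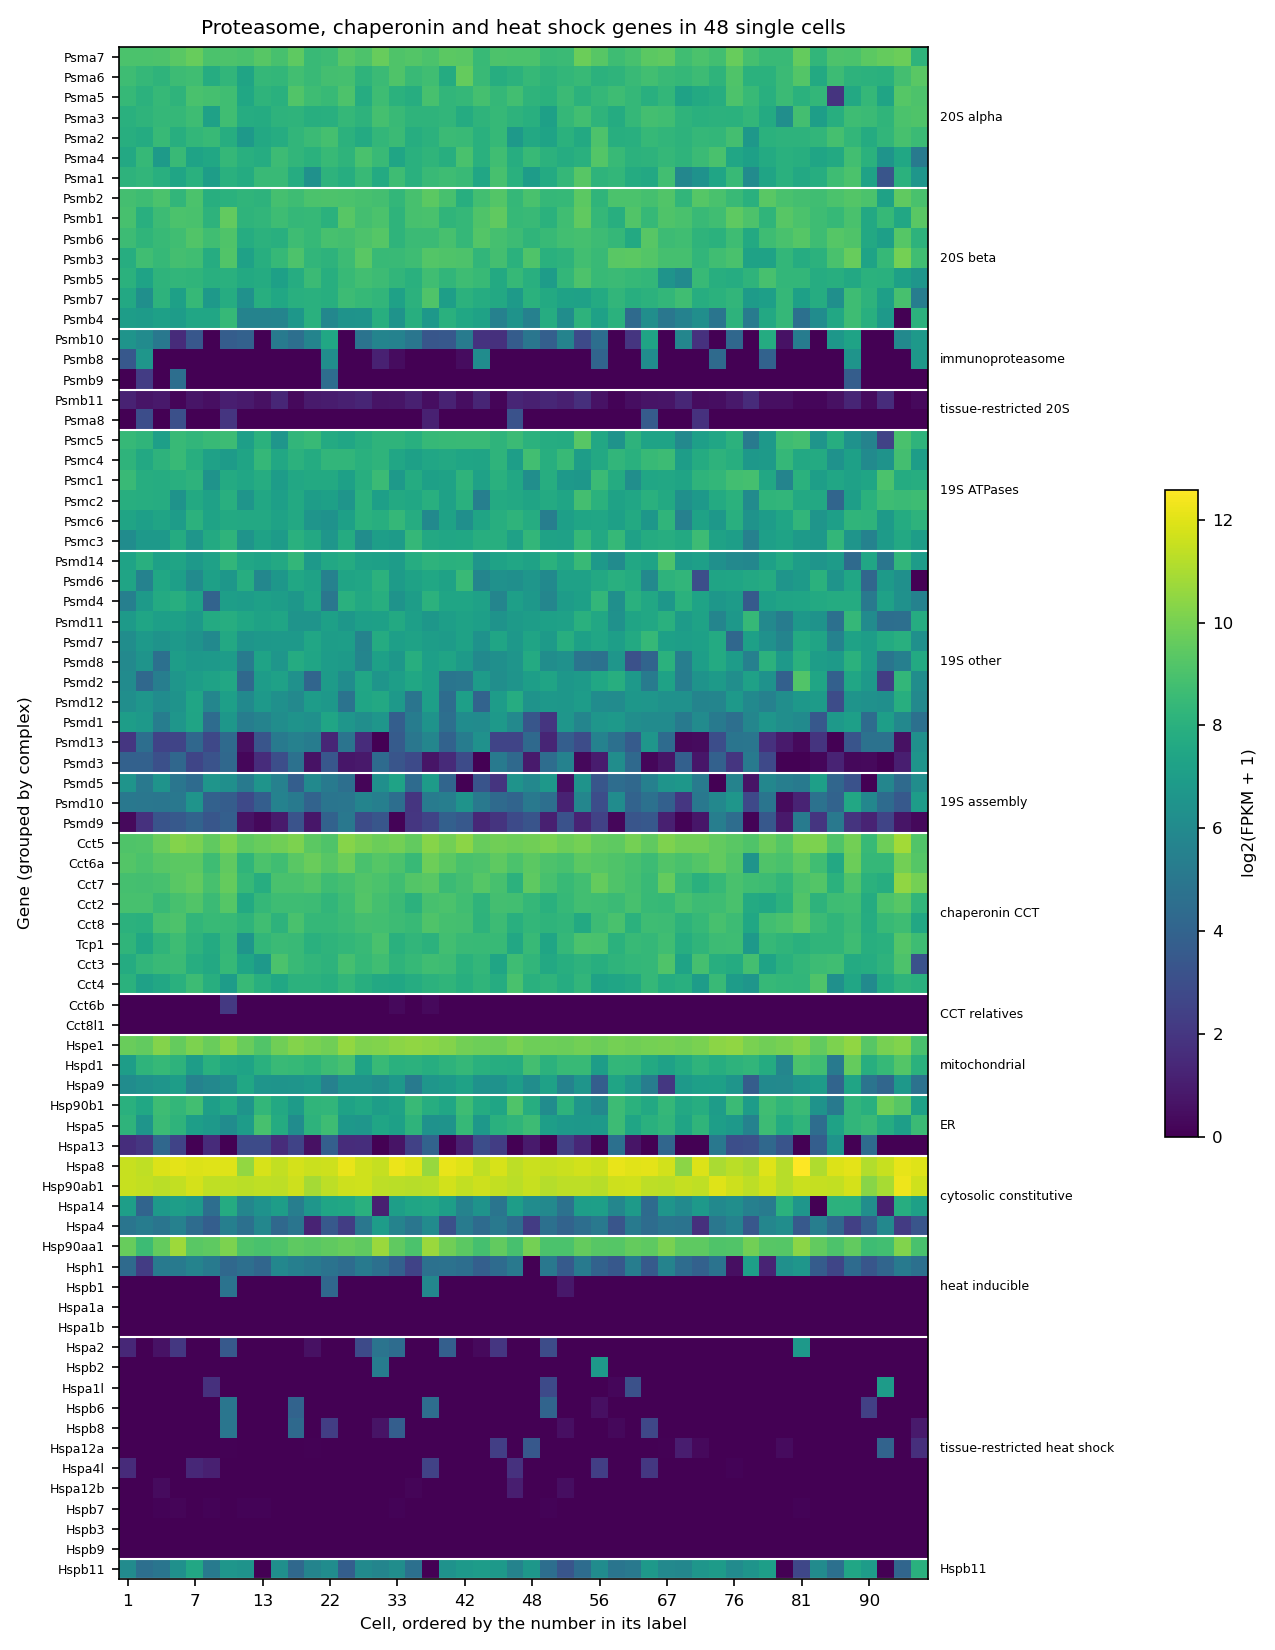
Heat map of log2(FPKM + 1) for the 76 members (y axis, grouped by complex) in the 48 cells (x axis, ordered by the number in the label). Core, ATPase and CCT genes are bright in nearly every column, while the immunoproteasome and tissue-restricted genes appear in scattered cells and Hspa1a and Hspa1b in none.

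The 20S core was transcribed in all cells, with the alpha subunits at like levels and a wider spread among the beta subunits. All 7 alpha genes were detected in 48 of 48 cells (100%, exact Clopper-Pearson 95% interval 92.6% to 100%), and their medians ran from 253 FPKM for Psma1 to 529 FPKM for Psma7, a 2.09-fold spread. Psma1 spanned 8.91 to 631 FPKM and Psma7 from 290 to 881 FPKM, so the ranges over cells overlapped, and the low end of Psma1 was a single cell, C92, with the next at 55.0 FPKM. The constitutive beta genes had medians between 116 FPKM (Psmb4) and 477 FPKM (Psmb2), a 4.12-fold spread.

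Among the beta genes are the 3 that carry the active sites. Psmb6, the caspase-like site, spanned 136 to 640 FPKM around a median of 403 FPKM. Psmb5, the chymotrypsin-like site, spanned 64.96 to 547 FPKM around a median of 276 FPKM, and Psmb7, the trypsin-like site, from 39.1 to 564 FPKM around a median of 231 FPKM. All 3 were present in every cell, and their ranges overlapped. Psmb4, a structural beta subunit, was the exception of the list in both level and spread: it spanned 0 to 407 FPKM, and the only cell at 0 was C93, where many other members were at their highest.

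By list median, the 19S cap was lower than the core. The medians of its ATPase genes were even, with a 1.71-fold spread, while those of its non-ATPase genes had a 27.9-fold spread. The 6 ATPase genes, detected in all cells, had medians from 154 FPKM (Psmc3) to 263 FPKM (Psmc5), with a list median of 199 FPKM against 289 FPKM for the alpha and 401 FPKM for the beta genes. The 11 non-ATPase genes had a list median of 112 FPKM. Psmd14, the subunit that removes ubiquitin from the substrate, led them with a median of 155 FPKM (range 19.7 to 535 FPKM).

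At the low end of the cap were Psmd3 and Psmd13, both structural subunits of its lid. The median of Psmd3 was 5.54 FPKM and its highest value 89.8 FPKM, with detection in 30 cells (62.5%, interval 47.4% to 76.05%), and Psmd13, with a median of 11.2 FPKM, was found in 40 cells. Most of the cells in which they were not detected held values above 0 but under 1 FPKM, since Psmd3 was listed at 0 in 4 cells and Psmd13 in 2. Psmd2, a large scaffold subunit of the base, had the largest spread of the list for its level: it spanned 3.71 to 567 FPKM, with the highest value in C81 and the next, 317 FPKM, in C93. The 3 assembly chaperones of the base are not part of the finished particle. Their medians were 36.3 FPKM for Psmd5, 28.6 FPKM for Psmd10 and 4.70 FPKM for Psmd9.

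The chaperonin CCT is a double ring built from 8 different subunits in equal number. All 8 genes were detected in all 48 cells. Cct5 had the highest median, 888 FPKM (range 356 to 1808 FPKM), followed by Cct6a at 566, Cct7 at 480, Cct2 at 405, Cct8 at 369, Tcp1 (the alpha subunit) at 323, Cct3 at 306 and Cct4 at 242 FPKM. This is a 3.67-fold spread of medians, and neighbours in the order overlapped widely. The lower quartile of Cct5, 733 FPKM, lay above the upper quartile of each of the other 7, the highest of which was 678 FPKM for Cct6a. The highest cell was C93 for 5 of the 8 genes (Cct2, Cct5, Cct6a, Cct7 and Tcp1). The testis-type relatives were nearly absent: Cct6b reached 1 FPKM in 1 cell (3.29 FPKM in C09), and Cct8l1 was listed at 0 in all 48, which allows a share of up to 6.25% of cells by counting error alone.

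**Figure D2:**
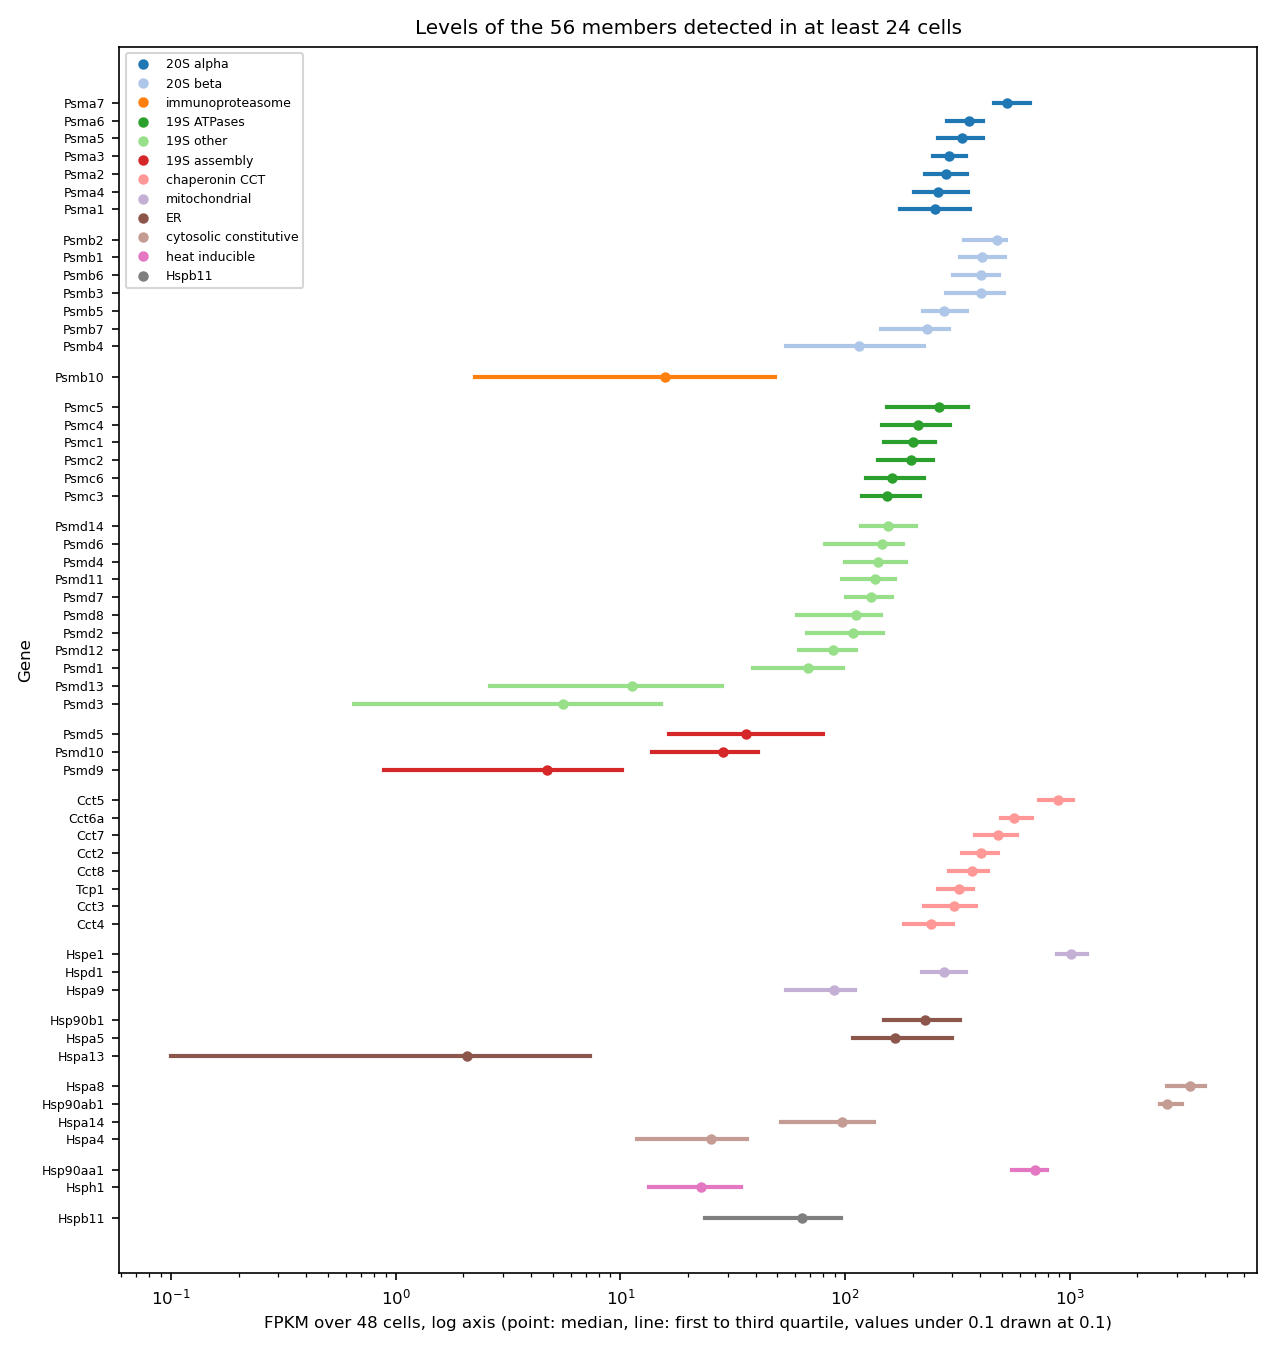
Median FPKM (points, log axis) and lower to upper quartile over the 48 cells (lines) of the 56 members detected in at least 24 cells, grouped and coloured by complex. Core and CCT genes lie between 116 and 888 FPKM, most 19S genes under 200 FPKM, and Hspa8 and Hsp90ab1 at 3430 and 2711 FPKM.

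The constitutive cytosolic chaperones were the most abundant members. Hspa8 (Hsc70), the housekeeping Hsp70 of the cytosol, spanned 1344 to 6168 FPKM around a median of 3430 FPKM. Hsp90ab1, the constitutive Hsp90, spanned 1321 to 4886 FPKM around a median of 2711 FPKM, its highest cell again being C93. Every cell held both at 1321 FPKM or more, and their ranges overlapped. Hspa14, a ribosome-associated Hsp70 relative, and Hspa4, a nucleotide exchange factor for Hsp70, were far lower, with medians of 97.0 and 25.4 FPKM. Some reads of Hspa8 may be shared with pseudogenes, since 39.4% of the 50-base windows of its transcripts also occur in transcripts of other genes.

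In the mitochondria, Hspd1 (Hsp60) forms the chaperonin barrel and Hspe1 (Hsp10) is its lid, while Hspa9 (mortalin) pulls proteins in through the membrane. Hspe1 spanned 506 to 1521 FPKM around a median of 1013 FPKM, and Hspd1 from 35.7 to 782 FPKM around a median of 276 FPKM. The lid transcript thus had the higher median, with overlapping ranges. Windows shared with other genes made up 42.1% for Hspd1 and 22.8% for Hspe1. Hspa9 had a median of 89.02 FPKM (range 3.06 to 178 FPKM). Hspd1 and Hspe1 lie head to head on chromosome 1, where their annotated genes overlap by 112 bp, and yet their levels over the 48 cells had a Spearman's rho of only 0.14 (Pearson's r = 0.11, and 0.21 without the 2 cells farthest in Hspd1).

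Their shared start region holds letters of the heat shock element, the motif of alternating units that heat shock factor recognises. Searched on both strands in the 300 bases around each start, the strict pattern (GAANNTTC followed after any 2 bases by another GAA) occurred in 0.603% of 32851 promoters and in 3 members, Hspd1, Hspe1 and Hsph1. The stretch is shown because it lies in the promoter windows of both neighbours, and whether it acts on either was not tested. It is written on the Hspe1 strand, 98 to 69 bases before the Hspe1 start and inside the annotated span of Hspd1 (RefSeq, GRCm38.p6, chr1:55088050-55088079), with the bases of 2 overlapping matches, 1 on each strand, in capitals.
Hspe1: cacggtccgTTCTAGAACCTTCCGGAAggc

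The heat-inducible list held 1 abundant and 4 low or undetected genes. Hsp90aa1, the inducible Hsp90, was detected in every cell, from 390 to 1721 FPKM around a median of 704 FPKM. It made up 19.97% of the summed Hsp90aa1 and Hsp90ab1 FPKM in the median cell, with a range from 12.3% to 39.6% (SD 6.31 over cells), so Hsp90ab1 was the higher of the pair in all cells. Of the 50-base windows of Hsp90aa1, 47.5% also occur in other genes, against 3.44% for Hsp90ab1, and the part of this in the share was not tested. Hsph1 (Hsp110), an exchange factor for Hsp70, was found in 46 cells (median 22.8 FPKM, highest 139 FPKM in C77). Hspb1 (Hsp25), a small heat shock protein, was detected in 3 cells (6.25%, interval 1.31% to 17.2%), at 17.7 FPKM in C22, 26.8 FPKM in C09 and 56.6 FPKM in C38. Of the windows of Hspb1, 50.1% also occur in other genes, and the part of this in its detection was not tested.

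Hspa1a and Hspa1b, the main inducible Hsp70 genes, were listed at 0 in all 48 cells, while Hspa8 had the highest median of all members. These zeros are uncertain, because Hspa1a (chromosome 17, 34969190 to 34972156, minus strand) and Hspa1b (34956436 to 34959238, minus strand) are near-identical copies. Of the 50-base windows of Hspa1a, 66.3% also occur in other genes, 58.8% in Hspa1b. For Hspa1l, their spermatid-type neighbour, the share was 71.4%, and all of these windows occur in Gm10501. Hspa1l reached 1 FPKM in 4 cells, among them 121 FPKM in C92. The part of read assignment in the zeros of Hspa1a and Hspa1b was not tested.

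The copies are alike before the start too. The shorter heat shock pattern GAANNTTC, which lies inside the strict one, occurred on either strand in 7.86% of all promoters and in 13 of the 62 members that have a promoter sequence, among them Hspa1a, Hspa1b and Hspb1. The 30 bases around it, 115 to 86 before the start, are the same letters in both copies (chr17:34972242-34972271 and chr17:34959324-34959353, both on the minus strand), with the match in capitals.
Hspa1a: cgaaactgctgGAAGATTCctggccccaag
Hspa1b: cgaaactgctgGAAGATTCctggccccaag

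In the ER, Hspa5 (BiP) is the Hsp70 and Hsp90b1 (Grp94) the Hsp90. Hspa5 spanned 21.7 to 493 FPKM around a median of 168 FPKM, and Hsp90b1 from 34.9 to 872 FPKM around a median of 226 FPKM. Both were found in every cell and varied widely, with lowest cells C84 and C87 and highest cells C13 and C92. Hspa13, a microsome-associated Hsp70 relative, was found in 29 cells (median 2.08 FPKM). Of all 2016 pairs among the 64 members detected in at least 5 cells, Hspa5 and Hsp90b1 had the highest correlation over cells, with a Spearman's rho of 0.56 (Pearson's r = 0.51, and 0.45 without the 2 cells farthest in Hspa5). Spearman's rho was 0.62 in the cells numbered up to 48 and 0.47 in those above.

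The promoters of both ER genes, and of no other of the 62 members with a promoter sequence, held the ER stress element, spelled CCAAT and CCACG with any 9 bases between them and searched on both strands, which occurred in 0.119% of all promoters. The 250 bases before each start are shown because this pair moved together most (RefSeq, GRCm38.p6; Hspa5 at chr2:34771840-34772089, plus strand, and Hsp90b1 at chr10:86705445-86705694, minus strand). Capitals mark 1 match in Hspa5 and 2 in Hsp90b1, the second of which is on the opposite strand and so reads in reverse complement. A match describes the letters and says nothing of whether a factor was bound in these cells.
Hspa5: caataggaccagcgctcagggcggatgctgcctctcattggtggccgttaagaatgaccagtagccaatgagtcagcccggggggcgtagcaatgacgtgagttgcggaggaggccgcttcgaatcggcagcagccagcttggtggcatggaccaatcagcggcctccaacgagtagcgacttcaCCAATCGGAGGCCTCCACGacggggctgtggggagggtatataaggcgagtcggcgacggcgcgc
Hsp90b1: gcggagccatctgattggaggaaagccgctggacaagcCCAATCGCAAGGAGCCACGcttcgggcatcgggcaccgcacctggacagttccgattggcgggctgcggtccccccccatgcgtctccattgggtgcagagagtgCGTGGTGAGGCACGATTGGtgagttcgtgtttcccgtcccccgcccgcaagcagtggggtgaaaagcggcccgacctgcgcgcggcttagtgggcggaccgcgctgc

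Other genes of ER protein folding varied with this pair. Of 17 such genes outside the rule, 13 were detected in at least 24 cells, led by Pdia3 (48 cells), Pdia6 and P4hb (47 each), with Dnajb9 (16 cells) and Ddit3 (8 cells) the least. The score of the ER members, the mean of their standardised log2(FPKM + 1), had a rho of 0.59 with the score of these 17 genes over the 48 cells. Ranked over all 5803 other symbols detected in at least 24 cells, the genes most like the Hspa5 and Hsp90b1 score were Calr (rho 0.61), Manf (0.60) and Pdia6 (0.57), all on that list, followed by Cstf1 (0.47) and Anapc16 (0.46). With each cell scaled to a fixed total without short RNAs, the 3 leading values were 0.63, 0.61 and 0.61.

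The immunoproteasome genes Psmb8, Psmb9 and Psmb10 encode catalytic subunits that can take the places of Psmb5, Psmb6 and Psmb7, and are known for their induction by interferon. They were lower than their constitutive counterparts and uneven over cells. Psmb10 was detected in 37 cells (77.1%, interval 62.7% to 88.0%) with a median of 15.8 FPKM, and its highest value was 214 FPKM in C79. Psmb8 was detected in 11 cells (22.9%, interval 12.03% to 37.3%), with a highest value of 104 FPKM, and Psmb9 in 4 cells, with a highest value of 22.1 FPKM. Psmb8 and Psmb9 lie 9956 bp apart on chromosome 17.

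Psmb8 was at 50 FPKM or more in 6 cells and was listed at 0 in 35. In these 6 cells, Psmb8 and Psmb10 were at 98.1 and 67.3 FPKM in C02, 71.9 and 182 FPKM in C22, 68.4 and 2.59 FPKM in C43, 67.9 and 162 FPKM in C65, 90.3 and 158 FPKM in C89, and 104 and 109 FPKM in C95. Psmb10 was thus at 50 FPKM or more in 5 of the 6 cells, and in 12 of all 48. Of the 11 cells with Psmb8, 10 also had Psmb10, and all 3 genes were found together in 3 cells, while 10 cells had none. The rho of Psmb8 and Psmb10 was 0.50 (Pearson's r = 0.42, and 0.36 without the 2 cells farthest in Psmb8), and it was 0.59 and 0.49 in cells numbered up to 48 and above.

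Set against the constitutive catalytic genes, the 3 immunoproteasome genes made up 2.62% of the summed FPKM of all 6 in the median cell, with a range from 0% to 33.7% (SD 7.29 over cells), and 10% or more in 7 cells. By pair, Psmb10 reached 73.6% of Psmb10 plus Psmb7 and Psmb8 reached 52.1% of Psmb8 plus Psmb5, both in C95, whereas Psmb9 did not pass 4.89% of Psmb9 plus Psmb6. The rho between inducible gene and constitutive partner was 0.0021 for Psmb5 with Psmb8 and -0.06 for Psmb7 with Psmb10. Of these 6 genes, Psmb5 had the highest percentage of windows shared with other genes, 54.1%, followed by Psmb8 with 11.9%. The part of this in the shares and in the rho of Psmb5 with Psmb8 was not tested.

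Of the other genes of interferon response and antigen presentation, 3 of 14 were found in at least 24 cells, a share near the 25.2% of all symbols: B2m in 48, Jak1 in 40 and Tapbp in 30. Tap2 and Nlrc5 reached 1 FPKM in no cell. Among the genes most like the score of Psmb8 and Psmb10 were Psme2 (rho 0.59), Prpf38a (0.57), Lcmt1 (0.56) and Tapbp (0.55). Psme2 encodes a subunit of the PA28 activator, which opens the core, and Tapbp encodes tapasin, which loads peptides onto MHC class I. B2m, the light chain of MHC class I, had a rho of -0.07 with Psmb10. The score of the interferon and antigen genes detected in at least 5 cells had a rho of 0.36 with that of Psmb8 and Psmb10. It was 0.49 in cells numbered up to 48, 0.31 above and 0.32 after scaling without short RNAs. Psmb10 also varied with the pluripotency factor Pou5f1 (rho 0.51; chosen after its value was seen), while Psmb8 had a rho of 0.25 with it. The 7 pluripotency markers summed to between 1.01 and 4570 FPKM per cell, and their score had a rho of 0.18 with that of the immunoproteasome genes. The part of such cells in these values was not tested.

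**Figure D3:**
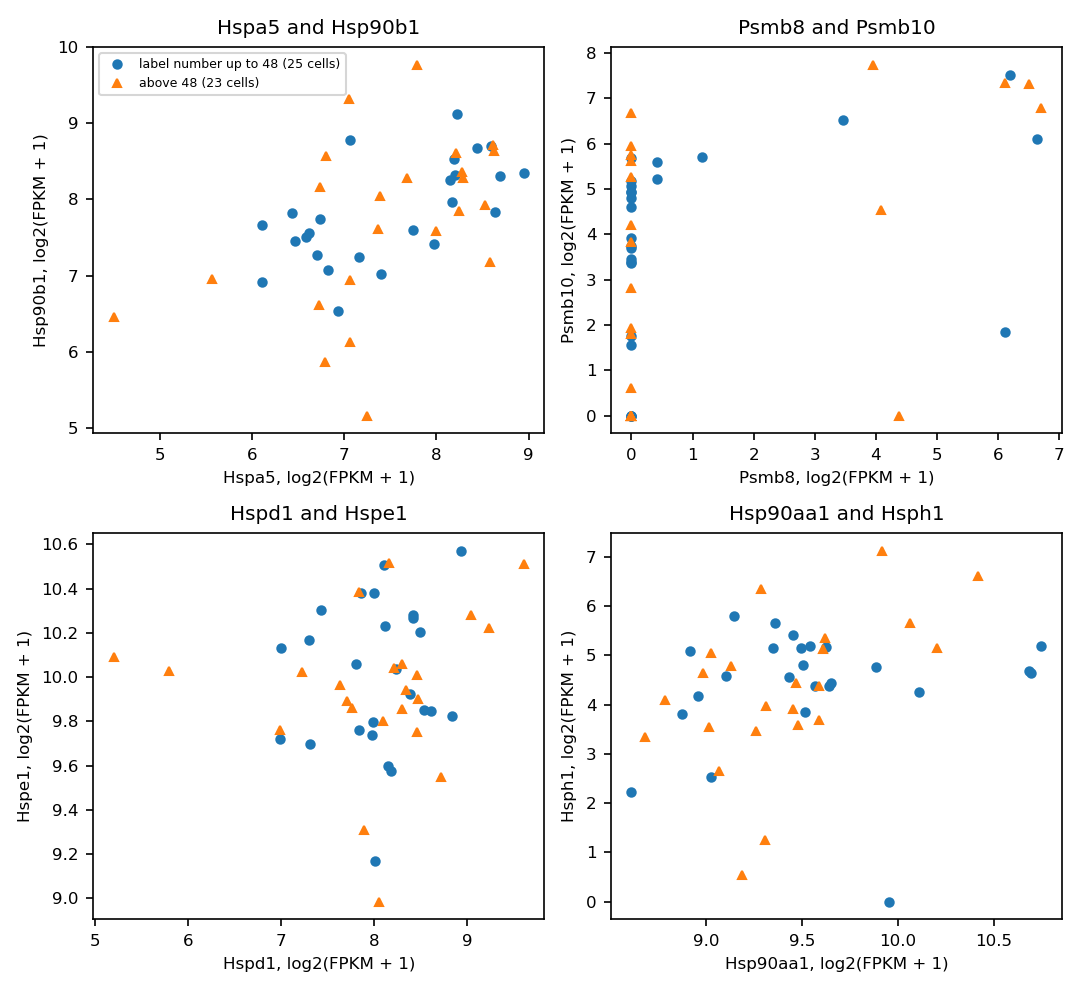
Scatter plots of log2(FPKM + 1) for 4 pairs of members, each point a cell, with circles for label numbers up to 48 (25 cells) and triangles above (23 cells). Hspa5 with Hsp90b1 (rho 0.56) slope upward, Psmb8 is at 0 in 35 cells and joined by Psmb10 where it is high, Hspd1 with Hspe1 (rho 0.14) form a cloud, and Hsp90aa1 with Hsph1 (rho 0.39) rise mainly among the triangles.

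The remaining members belong to particular tissues in the adult. None of the 11 tissue-restricted heat shock genes was detected in at least 24 cells, and their medians were all 0. Where they appeared, single cells could be high: Hspa2, an Hsp70 of spermatocytes, was found in 10 cells (highest 106 FPKM in C81), and Hspb2, a small heat shock protein of muscle, in 2 cells at 37.6 FPKM (C32) and 108 FPKM (C56). Hspb3 and Hspb9 were listed at 0 throughout, and Hspb7 did not pass 0.111 FPKM.

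Of the tissue forms of the core, Psma8, the alpha subunit of germ cells, was found in 7 cells (highest 11.1 FPKM). Psmb11, the thymus catalytic subunit, had an unusual pattern: it was above 0 in 47 cells but never exceeded 2.22 FPKM (median 0.64 FPKM), and 17 cells passed 1 FPKM. It lies 3410 bp from Psmb5, a member present in all cells. Hspb11, which carries a heat shock symbol but belongs to the intraflagellar transport complex, was found in 44 cells (median 64.3 FPKM).

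Genes of one complex were only loosely coordinated from cell to cell. The mean Spearman's rho over pairs was 0.24 for the 8 CCT genes, 0.15 for the 14 genes of the 20S core and 0.04 for the 17 genes of the 19S cap. Over all 10598 symbols detected in at least 5 cells it was 0.02, and over the 720 symbols with a median of at least 100 FPKM, which are more like these genes in level, it was 0.08. The 19S value thus lay below that of the abundant symbols, although 4 cap genes have medians under 100 FPKM, and the CCT and 20S values lay above it. The spread over pairs was wide, with an SD of 0.16 for CCT and 0.13 for the core.

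Within CCT, 25 of 28 pairs were positive, the highest being Cct6a with Cct7 (0.47). In the core, 80 of 91 pairs were positive, led by Psma3 with Psma7 (0.52), while in the cap 80 of 136 were, led by Psmc5 with Psmd14 (0.42). Among the heat shock genes, the mean was 0.18 for the mitochondrial genes, where Hspd1 with Hspa9 led (0.27), and 0.02 for the constitutive cytosolic genes, where Hspa8 with Hsp90ab1 led (0.34). Hsp90aa1 with Hsph1 had a rho of 0.39, but this differed by label number, at 0.10 up to 48 and 0.56 above.

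These values moved with the scale. Scaling each cell to a fixed total of 1000000 without short RNAs lowered the mean rho to 0.11 for CCT, 0.04 for the 20S core and 0.01 for both the 19S cap and the abundant symbols, and turned that of the constitutive cytosolic genes to -0.06. It left Psmb8 with Psmb10 at 0.49, Hspa5 with Hsp90b1 at 0.55 and Hsp90aa1 with Hsph1 at 0.36. Without C93 the mean rho as deposited was 0.21 for CCT and 0.16 for the core, and no complex moved by more than 0.1.

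**Figure D4:**
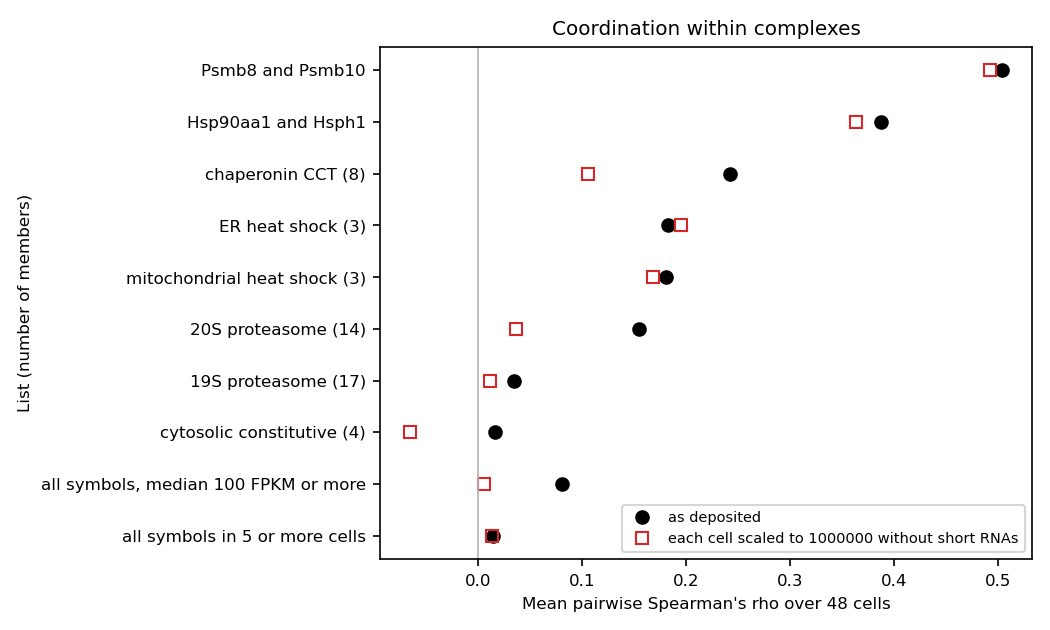
Mean pairwise Spearman's rho over the 48 cells (x axis) within each complex or pair (y axis), as deposited (filled circles) and with each cell scaled to 1000000 without short RNAs (open squares). Psmb8 with Psmb10 and Hsp90aa1 with Hsph1 stay above 0.3 on both scales, while CCT and the 20S core drop toward the values of all symbols.

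Scores average over the genes of a list, so their correlations exceed those of single genes by construction wherever the pairs are positive on average. The score of the 20S core had a rho of 0.73 with that of CCT and 0.61 with that of the 19S cap, and CCT had 0.60 with the heat-inducible pair Hsp90aa1 and Hsph1. Without C93 these were 0.73, 0.61 and 0.58, and after the scaling above 0.32, 0.38 and 0.50. The ER score stood outside this, with rho between -0.09 and 0.04 for the core, the cap and CCT. The number of detected genes in a cell had a rho of 0.22 with the core score, 0.39 with the cap score and 0.27 with the CCT score, and its part in these relations was not tested.

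On the deposited scale, some pairs across complexes had higher values than the leading pairs of the complexes they join. Among these were Psmb3 with Tcp1 (0.55), Cct7 with Psmd2 (0.55), Cct2 with Psmb3 (0.54), Cct2 with Psma7 (0.53), Cct5 with Hsp90aa1 (0.52) and Cct6a with Hsp90aa1 (0.51). C93 was the highest cell for Psmb3, Tcp1, Cct7, Cct2, Psma7, Cct5 and Cct6a. Without the 2 cells farthest in the gene named first, the values were 0.49, 0.49, 0.48, 0.49, 0.47 and 0.56. After the scaling above they were 0.333, 0.474, 0.376, 0.337, 0.407 and 0.320. Psma3 with Psma7, the leading pair of the core, was then at 0.415, above the pairs with Psmb3 and above Cct2 with Psma7. Over the 2016 member pairs the mean was 0.07, with a range from -0.48 to 0.56, 9 pairs at 0.5 or more and 672 below 0.

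The 5 symbols most like the core score were Rpl35a (rho 0.75), Cox7b (0.71), Rplp2 (0.71), Rpl19 (0.70) and Rps13 (0.68). After scaling, these were at 0.50, 0.48, 0.23, 0.29 and 0.33. For the score of Hsp90aa1 and Hsph1 they were Gapdh (0.55), Gm12070 (0.53), Got1 (0.52), Zfp706 (0.52) and 1110038F14Rik (0.51). For CCT the first 3 were Rps3 (0.68), Rplp2 (0.63) and Nfe2l2 (0.62), which scaling brought to 0.33, 0.05 and 0.48. The heat-inducible score had a rho of 0.42 with the pluripotency markers (0.63 in cells numbered up to 48, 0.22 above). It had a rho of -0.04 with the 9 immediate early genes detected in at least 5 cells. Of the 10 immediate early genes listed, 6 were detected in at least 24 cells, led by Fos in 44.

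Most members varied as much as other genes of their level. Variability was measured by the squared coefficient of variation, set against a trend line through genes averaging 5 FPKM or more. Of the 57 members this admits, 4 exceeded the line by more than 2-fold (10.5% of all 6266 genes did), and 30 lay below it (48.9% of genes). The 4 were Psmb8 (3.25-fold above), Hspa8 (2.48-fold), Psmb10 (2.41-fold) and Hsp90b1 (2.06-fold), with Psmd2 at 1.93-fold and Hsp90aa1 at 1.90-fold just under the limit. Without the 7 cells of fewest detected genes, Hsp90b1 was no longer above the limit. Thus both testable immunoproteasome genes were among them. Hspa8 passed with a coefficient of variation of only 0.285, because genes of its level varied little. The chaperonin lay lower, with 6 of 8 CCT genes below the trend, as did 6 of 7 alpha genes, and Cct7 was the most variable CCT gene at 1.55-fold.

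**Figure D5:**
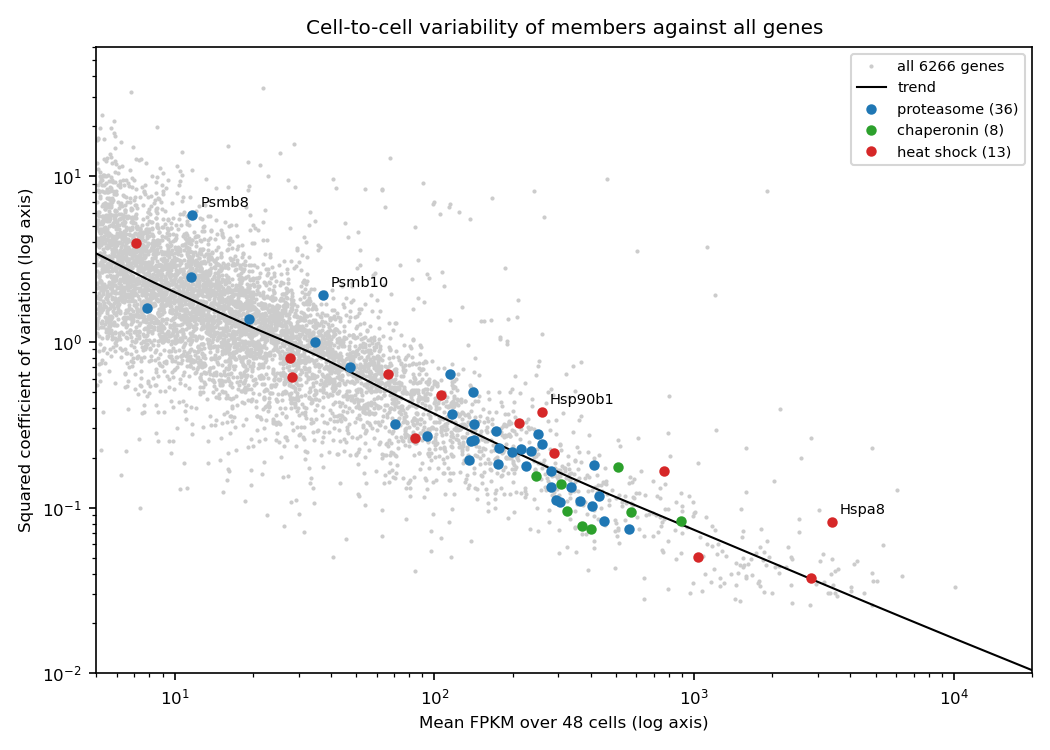
Squared coefficient of variation against mean FPKM (both log axes) for 6266 genes (grey), with the trend (line) and the 57 members coloured by family. Psmb8, Psmb10, Hspa8 and Hsp90b1, which are named, lie over 2-fold above the line, and most CCT and core genes lie near or under it.

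Partner genes outside the rule are set beside the 25.2% of all symbols detected in at least 24 cells. All 16 genes of proteasome assembly and activation were found in at least 24 cells, from Shfm1 (median 709 FPKM), Pomp and Psmg2 in all cells to Psme3 in 41 and Psmf1 in 36. Prefoldin hands actin and tubulin to CCT, and its list here also holds Pdcl, Pdcl3 and Txndc9, which are not prefoldin subunits. All 8 genes of this list were found in at least 24 cells, led by Pfdn5 (median 307 FPKM), Vbp1 and Pfdn1, with Txndc9 and Pdcl the least. All 20 cochaperones were too, led by Ptges3 (p23, median 1563 FPKM), Fkbp4 and Stip1, with Bag2 in 28 cells and Fkbp5 in 26. The cochaperone score had a rho of 0.61 with CCT and 0.57 with the core, and of 0.31 and 0.30 after scaling.

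The 8 mitochondrial folding genes were all found in at least 24 cells, led by Trap1, Clpp and Timm44, with Lonp1 and Clpx the least. Of 10 genes of ubiquitin supply and proteasome regulation 8 were, among them Rps27a (median 1819 FPKM) and Ubb (median 1536 FPKM) in all cells. The least were Ngly1 in 10 cells and Ddi2 in 6, the enzymes that process the proteasome regulator Nfe2l1.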

How the data were processed

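RNA of 48 single cells was analysed from 1 table with a column per cell. The authors' deposited values carry no unit and were taken as FPKM, the output of Cufflinks (2.2.1.0), a tool listed in the submitters' processing notes together with mm10, CASAVA (1.8.2) and TopHat (0.7); the notes do not say what each did. Gene annotation and read filters: not given in the sources used here. Since FPKM keeps no counts, depth per cell is unknown and levels carry no interval. Intervals for shares of cells (exact Clopper-Pearson, 95%) and the limit of 3 counts for a share of 0 cover counting error only.

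Rows of 240 symbols on several rows were summed. No cell was removed and no doublet caller was run, since the table holds no counts. Correlations used log2(FPKM + 1), a pseudocount of 1 FPKM, and members detected in at least 5 cells. Scaled values bring each cell to 1000000 without 781 short RNA symbols. The trend of variability was a local regression (span 0.4) over genes averaging 5 FPKM or more and detected in at least 5 cells. Coordinates are from GENCODE M21 on GRCm38, and promoters (250 bases before to 50 after a start) from RefSeq, which held 62 of the 76 members in 70 windows. In all, 6 motifs were searched. Besides those printed in the report, these were TGACNNNGC (both strands; 12.4% of promoters, 10 members), TGACTCAGC, which TGACNNNGC contains (0.454%, 0 members), and a pair of GAAA units with any 2 bases between them, on either strand (3.44%, 4 members).

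With 1 sample there was no test. Members and lists were chosen with earlier results of these data known. Of 239 listed genes, 2 (Spi1 and Pfdn6) were not found under these symbols. Values are printed for all members of the catalytic, immunoproteasome, CCT, inducible, mitochondrial, ER and constitutive lists. In other lists they are printed for the highest, the lowest and the most variable member, with the leading pair per list, the 3 most and 2 least detected related genes and the 5 symbols most like the core and inducible scores. Some genes that this rule would name are not reported here. Likeness to the other scores, the relation to cell type lists, and leaving out C93 were added later, with the data already seen.

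Alternatives covered the detection limit, scaling, pseudocount, cells with few detected genes, label number and covariates. A correlation counted as moved beyond 0.1, a level or share beyond 1 SD over cells, and a count beyond 1.5 times. The procedures were tested on simulated data. Python 3.11.15, numpy 2.4.6, pandas 2.3.3, scipy 1.17.1, statsmodels 0.14.6 and matplotlib 3.10.9 were used.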

Additional observations from a re-analysis of the deposited data

How the results depend on the processing

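Of 220 alternative values, 177 kept their direction and stayed within the limits given above, 39 moved and 4 changed sign. Scaling each cell to 1000000 without short RNAs raised the median level to 533 for 20S alpha, 696 for 20S beta, 358 for the 19S ATPases, 198 for the 19S non-ATPases, 684 for CCT, 535 for the mitochondrial, 301 for the ER and 2693 for the constitutive cytosolic genes. Scaling over all rows gave 455 for 20S alpha, 519 for 20S beta, 263 for the 19S ATPases, 556 for CCT and 2224 for the constitutive genes. Both follow from dividing by a sum under 1000000 in most cells.

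The mean rho within lists changed with the scale, the label number and the measure. Scaled without short RNAs it was 0.037 for the 20S core, 0.11 for CCT and -0.065 for the constitutive genes. Over all rows, where short RNAs dominate the sum of some cells, it was 0.51 for the core, 0.36 for the cap, 0.62 for CCT, 0.30 for the ER, 0.57 for the mitochondrial, 0.67 for the heat-inducible and 0.33 for the constitutive genes. Label numbers up to 48 gave 0.04 for the mitochondrial and 0.099 for the heat-inducible genes, and numbers above 48 gave 0.56 for the heat-inducible and -0.0046 for the constitutive genes. Pearson's r gave -0.0076 (pseudocount 1) and -0.0054 (0.1) for the constitutive genes, and with 0.1 it gave 0.22 for the heat-inducible and 0.37 for the immunoproteasome genes. Without the 7 cells under 5189 detected genes the ER value was 0.30. Regression on the number of detected genes left CCT at 0.23, the core at 0.15 and the cap at 0.03.

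Between scores, scaling without short RNAs gave 0.32 for the core with CCT and 0.38 for the core with the cap. Scaling over all rows gave 0.81 for the core with the cap and 0.72 for CCT with the heat-inducible genes. The latter was 0.72 up to label number 48 and 0.47 above. With the number of detected genes, the core had 0.051 above 48, the cap 0.24 up to 48 and 0.28 scaled over all rows, and CCT 0.086 above 48 and 0.078 scaled over all rows. The cause was not tested. No paired analysis was possible because the labels give 1 group. Depth, which limits what a value of 0 means, is unknown.

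Among variable members, 3 of the 4 (Psmb8, Psmb10 and Hspa8) also passed without the 7 cells, where Hsp90aa1 (2.17-fold) and Psmd2 (2.18-fold) joined and Hsp90b1 did not. A mean of at least 1 FPKM added Hspa2 (3.80-fold).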
